A study of Homo sapiens with 4 samples.

Results

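Peaks of MIR205HG chromatin occupancy that were found only in replicate 2 are described here. MIR205HG, also named LEADR, is a long noncoding RNA, and its chromatin sites were mapped by ChIRP-seq in RWPE-1 cells, an immortalized line of normal prostate epithelial cells. The MIR205HG probe pool was used in 3 replicates and a lacZ probe pool, directed at a bacterial RNA, in 1 control library. RWPE-1 cells without further treatment were used for all 4 samples, after crosslinking with formaldehyde and sonication to chromatin of 500 to 800 bp. Peaks had been called in each MIR205HG replicate against the same lacZ library, so the errors of the 3 lists are not independent. A single cell line was studied, and the peak lists hold no expression values with which the labelled cell type could be checked. The peak names inside each list carry another library number than the label of the list (2, 3 and 4 in the lists of replicates 1, 2 and 3), and the numbers used here follow the labels.

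The list of replicate 2 held 10765 peaks on chromosomes 1 to 22 and X, of 28542 in the 3 lists. The members were selected on measured values, as the peaks of replicate 2 whose interval shared no base with any peak of replicate 1 (723 peaks) or replicate 3 (17054 peaks). There were 2086 such peaks, 19.4% of those tested. They are called replicate 2 only peaks, and they are set beside the 8678 replicate 2 peaks that overlapped a replicate 3 peak, called shared peaks. Of the shared peaks, 661 also overlapped replicate 1, and the 1 remaining peak overlapped replicate 1 alone and is in neither set. Because overlap defines the sets, enrichment, width and distance to replicate 3 are given as descriptions without a test. Location and sequence content did not enter the overlap rule, and their differences are given with 95% intervals.

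In ChIRP, biotinylated DNA probes complementary to an RNA capture that RNA together with crosslinked chromatin, from which the DNA is sequenced. A probe pool against an RNA that the cells do not make serves as the control for what is recovered without the target. Alu elements are short interspersed repeats of primates, present throughout introns and gene-rich regions, and the MIR205HG transcript contains part of one.

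The sequence around the summits separated the replicate 2 only peaks from the shared peaks more than their location did. The summit window of the most enriched shared peak without an Alu alignment, among those eligible for printing, is shown, because it carries transcript sequence of the kind that was less frequent at replicate 2 only summits. It is the 200 bp around the summit on the plus strand of hg19. The capitals mark the run of at least 13 bases that also occurs in the MIR205HG transcript.
shared, no Alu, chr15:39020941-39021140: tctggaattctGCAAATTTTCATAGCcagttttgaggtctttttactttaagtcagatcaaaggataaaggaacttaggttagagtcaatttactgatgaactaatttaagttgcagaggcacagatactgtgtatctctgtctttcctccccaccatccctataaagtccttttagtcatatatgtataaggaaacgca

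The capitals of this shared peak were bases 945 to 959 of the transcript in reverse complement, outside the Alu part. Its fold enrichment was 28.8, from 73 reads at the summit.

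Alu sequence was more frequent at replicate 2 only summits than at shared summits. The Alu part of the transcript was taken as bases 182 to 388 of its 1007 bases, and a 300 bp window around the summit was counted when an alignment of at least 100 bp was found. Of the replicate 2 only peaks, 764 had such an alignment (36.6%, exact Clopper-Pearson 95% interval 34.6 to 38.7), against 2277 shared peaks (26.2%, interval 25.3 to 27.2). The difference was 10.4 percentage points (Newcombe 95% interval 8.14 to 12.7), and the share was higher in replicate 2 only peaks on 22 of 23 chromosomes. Among 472604 windows of 300 bp spaced evenly over the genome the share was 5.64%. Such intervals cover counting error only, and they treat neighbouring peaks as separate. The median identity of the alignments was 81.4% in replicate 2 only peaks and 81.3% in shared peaks, and the median length was 109 bp in both. With alignments from 50 bp the shares were 70.1% and 52.1%. When the whole peak was searched in place of the window, the difference was -0.501 percentage points (interval -2.74 to 1.79), over peaks with a median width of 255 and 338 bp.

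Repeated sequence of any kind separated the sets further. Windows were classed as repeated when at least 50% of their bases lay in words that occur many times in the genome, as masked by windowmasker, a measure chosen after the first values were seen. This held for 1856 replicate 2 only peaks (89.0%, exact 95% interval 87.6 to 90.3) and 5830 shared peaks (67.2%, interval 66.2 to 68.2), a difference of 21.8 percentage points (interval 20.1 to 23.4). The share was higher in replicate 2 only peaks on each of the 23 chromosomes, and it was 29.5% in the genome windows. Repeated windows with no Alu alignment of 50 bp made up 19.5% of replicate 2 only peaks and 16.0% of shared peaks (difference 3.45, interval 1.62 to 5.36). A run of at least 10 A or T was found in 18.9% and 15.8% (difference 3.18, interval 1.38 to 5.08) and in 9.73% of genome windows. Uninterrupted purine or pyrimidine runs of at least 15 bases were found in 22.6% of replicate 2 only and 22.3% of shared windows, and the difference of 0.341 did not exceed counting error (interval -1.62 to 2.38).

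Exact copies of long words from the windows were few in both sets. Copies with mismatches were not counted, and the placement of reads was not tested. In 1950 replicate 2 only peaks (93.5%, exact 95% interval 92.3 to 94.5), every 100-base word around the summit occurred once on chromosomes 1 to 22 and X. The share was 94.6% in shared peaks, a difference of -1.14 percentage points (interval -2.37 to -0.039). The most repeated 100-base word of any replicate 2 only window occurred 935 times on chromosomes 1 to 22 and X, and that of any shared window 3340 times.

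**Figure D1:**
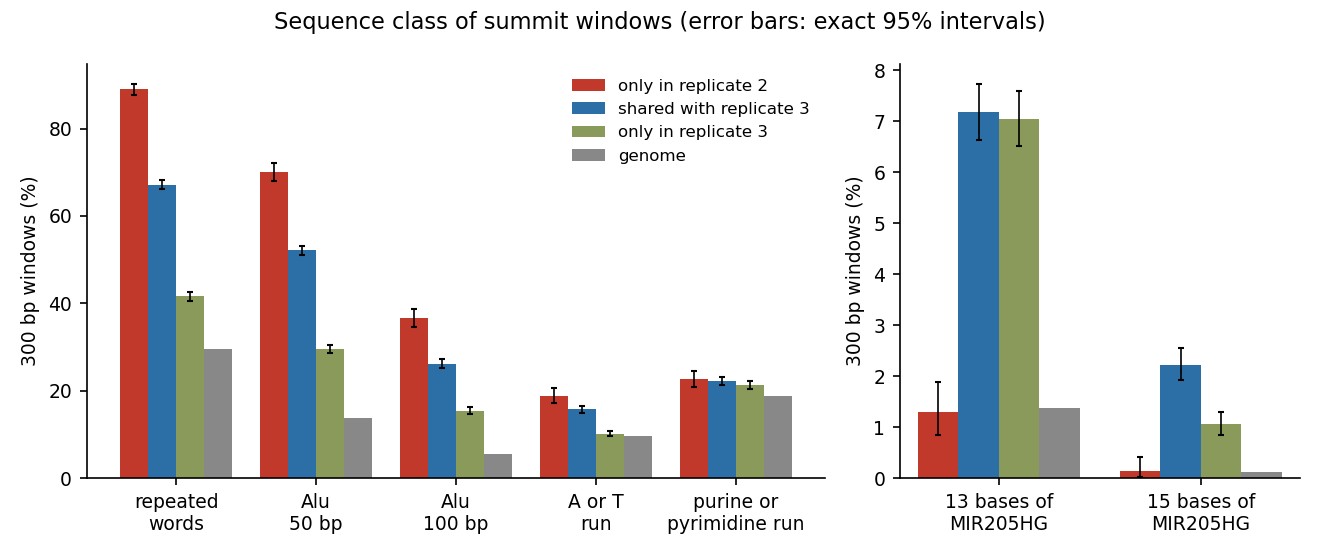
Share of 300 bp summit windows (y axis, %) in each sequence class for the 2086 replicate 2 only, 8678 shared and 8900 replicate 3 only peaks, with exact 95% intervals, and for evenly spaced genome windows. Repeated words and Alu are highest in replicate 2 only peaks, while the 13 and 15 base words of the MIR205HG transcript outside its Alu part (right) are at 1.29% and 0.144% there, beside 1.37% and 0.128% in the genome.

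Sequence of MIR205HG outside its Alu part showed the opposite pattern. Words were counted after earlier values had been seen. A word of 13 bases of the transcript, on either strand and outside bases 182 to 388, was found in 27 replicate 2 only windows (1.29%, exact 95% interval 0.855 to 1.88) and 623 shared windows (7.18%, interval 6.64 to 7.74). The difference was -5.88 percentage points (interval -6.58 to -5.10), and the share was lower in replicate 2 only peaks on each of the 23 chromosomes. In the genome windows it was 1.37%, which lies within the interval of the replicate 2 only peaks. With words of 15 bases there were 3 replicate 2 only windows (0.144%, interval 0.0297 to 0.420) and 193 shared windows (2.22%, interval 1.92 to 2.56), and 0.128% of genome windows. Among the shared peaks, the 13-base share was 5.48% in those found in replicates 2 and 3 alone and 27.8% in those found in all 3 replicates. The sequences of the probes were not used here.

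Of the 623 shared windows with a word, 489 had one from 7 stretches of the transcript, defined as word starts found in at least 10 shared windows. The most frequent are printed, as the transcript sequence of the GENCODE annotation in DNA letters.
bases 16 to 36: tgagtccctcttgctcaccct
bases 435 to 454: ccccacctttcctcaggagt
bases 944 to 959: tgctatgaaaatttgc

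Words of bases 16 to 36 were found at 250 shared summits and at 1 replicate 2 only summit. Words of bases 435 to 454 were found at 95 and 2, and those of bases 944 to 959 at 52 and 0; a count of 0 of 2086 allows a share of up to 0.144%, with the limit set at 3 counts. Over the 7 stretches there were 6 replicate 2 only summits (0.288%, exact 95% interval 0.106 to 0.625) and 489 shared summits (5.63%, interval 5.16 to 6.14). The stretches were defined on the shared peaks, so these counts are a description.

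Peaks found only in replicate 3 were set beside them to see whether absence from another list went with the same sequence. The sets are unlike in other ways, and these were not matched. The replicate 3 only peaks were 8900 of 17054, absent from the smaller replicate 2 list of 10765. Their median fold enrichment was 6.18 (highest 22.4), against 5.19 (highest 10.9) in replicate 2 only peaks. The 8900 replicate 3 only peaks had a 13-base word in 7.04% of windows (interval 6.52 to 7.60), and the difference of replicate 2 only minus replicate 3 only was -5.75 percentage points (interval -6.43 to -4.97). An Alu alignment was found in 15.4% of them, and 41.6% were repeated, so replicate 2 only peaks were higher by 21.2 (interval 19 to 23.4) and 47.4 percentage points (interval 45.7 to 49.0).

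**Figure D2:**
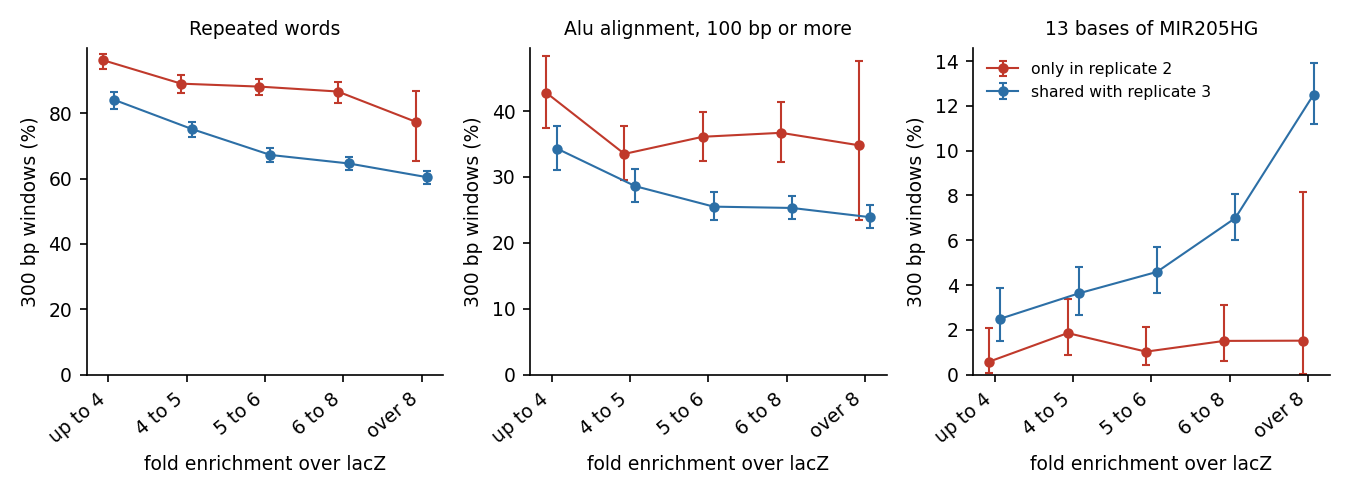
Share of 300 bp summit windows (y axis, %) with repeated words, an Alu alignment of at least 100 bp or 13 bases of MIR205HG outside its Alu part, by fold enrichment over lacZ (x axis), for replicate 2 only and shared peaks with exact 95% intervals. In each of the 5 bins the replicate 2 only peaks lie above the shared peaks for repeated words and Alu and below them for MIR205HG words.

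The differences in sequence were seen at each level of enrichment. Among peaks with a fold enrichment over 8, MIR205HG words were found in 1 of 66 replicate 2 only peaks (1.52%) and in 305 of 2438 shared peaks (12.5%), a difference of -11.0 percentage points (interval -12.8 to -4.30). At 4 or less they were found in 2 of 341 (0.587%) and 19 of 760 (2.50%), a difference of -1.91 (interval -3.35 to -0.145). The interval included 0 only between 4 and 5, where it ran from -3.22 to 0.00925. The share of repeated windows fell from 96.2% to 77.3% between the lowest and the highest bin of replicate 2 only peaks, and from 84.1% to 60.4% in shared peaks. Enrichment was not matched within the highest bin, where replicate 2 only peaks reached 10.9 and shared peaks 36.1. With shared peaks weighted to the fold enrichment deciles of the members, the word difference was -3.54 percentage points (interval -4.18 to -2.77). The difference in repeated windows was then 17.5 (interval 15.7 to 19.2) and that in Alu 8.91 (interval 6.57 to 11.3).

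The difference in base composition between the sets depended on how it was taken. The median GC content of the window was 49.0% in replicate 2 only peaks (quartiles 45.3 and 51.7) and 48.7% in shared peaks (quartiles 44.7 and 52.3), beside 40% in the genome windows. The difference of 0.333 percentage points had an interval from -0.333 to 0.333, and with windows of 1000 bp it was -1.10 (interval -1.50 to -0.500). It was 1.05 over whole peaks (interval 0.670 to 1.47), 0.667 when summits within 500 bp counted as the same site (interval 0.333 to 1.33) and 5.33 when overlap was judged by replicate 1 alone (interval 4.67 to 6). The observed to expected ratio of CpG had medians of 0.280 and 0.25, and 0.173 in the genome.

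Replicate 2 only peaks were weaker and narrower than shared peaks. Their median fold enrichment over lacZ at the summit was 5.19 (quartiles 4.40 and 6.04, highest 10.9), and that of the shared peaks was 6.35 (quartiles 5.11 and 8.29, highest 36.1). The median −log10 q was 4.59 and 7.51. The number of reads at the summit, solved from the deposited enrichment and p-value, had a median of 17 in replicate 2 only peaks (quartiles 14 and 21, range 9 to 68) and 23 in shared peaks (quartiles 18 and 32). The lacZ background at the summit had medians of 1.3 and 1.43 reads, and 13.9% and 16.5% of peaks were at the lowest level of 0.850. The depth of the replicate 2 library, relative to lacZ, was 1.39, and that of replicate 3 was 1.00.

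The share of replicate 2 only peaks followed both measures. It was 31.1% in the lowest decile of fold enrichment, 25% in the fifth, 8.02% in the eighth and 0.186% in the highest, where it was 2 of 1076 peaks. The median width was 255 bp for replicate 2 only peaks (quartiles 226 and 308, range 217 to 1309) and 338 bp for shared peaks (quartiles 267 and 461). Of the 2738 narrowest peaks, from 217 to 253 bp, 36.9% were replicate 2 only peaks, and of the 2681 widest, from 433 bp, 4.25%.

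**Figure D3:**
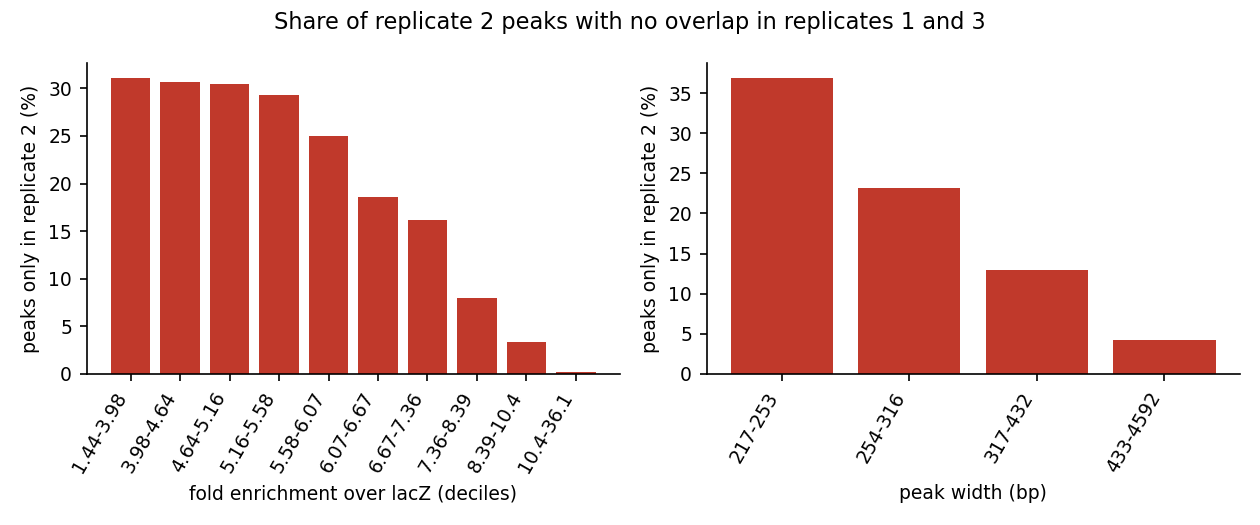
Percentage of replicate 2 peaks that overlapped neither other replicate (y axes), by decile of fold enrichment over lacZ (left) and by peak width in bp in 4 groups of similar size (right). The share goes from 31.1% to 0.186% with enrichment and from 36.9% to 4.25% with width.

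Peaks of replicate 3 were close to most replicate 2 only peaks, and far from the others. The gap to the nearest replicate 3 peak had a median of 1758 bp (quartiles 682 and 54818, highest 1414142). It was at most 500 bp in 402 peaks (19.3%), at most 1000 bp in 716 (34.3%) and at most 5000 bp in 1282 (61.5%). From 5000 to 10000 bp away there were 38 peaks, from 10000 to 100000 bp 407, and beyond that 359. On a log scale the distances formed a near and a far group. These ranges differ in length, and the number of peaks per base of distance fell from each of them to the next. Of the sequenced genome outside replicate 3 peaks, 0.855% lay within 1000 bp and 6.84% within 10000 bp of one. Shared peaks were nearer to the next replicate 3 peak that they did not overlap, with a median gap of 720 bp and 60.6% within 1000 bp. The nearest replicate 3 peak of the 1282 near members had a median fold enrichment of 6.97, and the members themselves 5.19. Peaks of replicate 1 were distant, with a median gap of 1385184 bp and 20 replicate 2 only peaks within 1000 bp (0.959%).

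Few shared peaks lay next to the overlap threshold, while 57 replicate 2 only peaks (2.73%) had a gap of at most 100 bp. When a gap of up to 500 bp counted as overlap, 1684 replicate 2 only peaks were left. The closest members were chr1:116115243-116115515 and chr6:87427831-87428062, each 1 bp from a replicate 3 peak, with fold enrichments of 4.47 and 4.64. The shared peak with the least overlap was chr5:43356517-43356904, with 1 bp and a fold enrichment of 6.95. The median overlap of the shared peaks was 304 bp, and 31 of them (0.357%) overlapped by less than 50 bp.

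**Figure D4:**
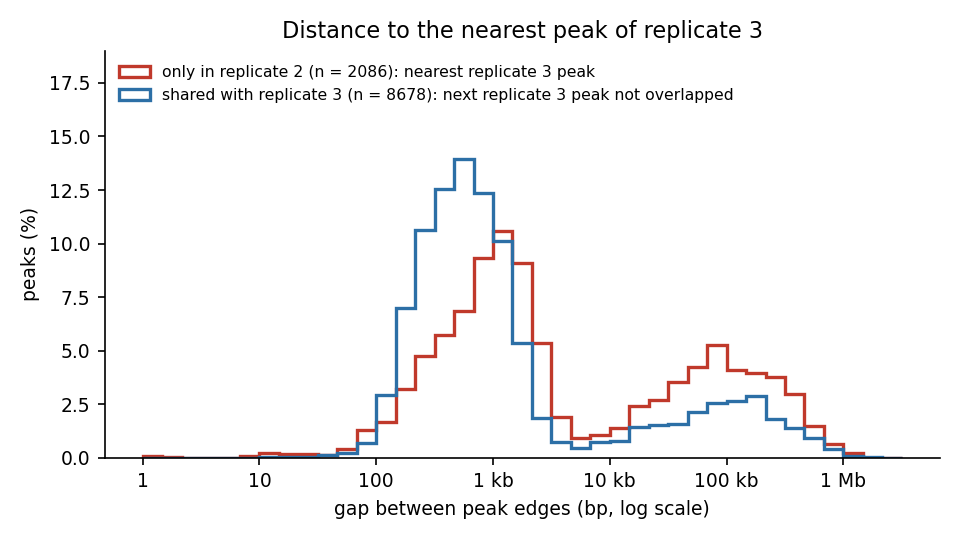
Distribution (y axis, % of peaks) of the gap in bp on a log scale from each replicate 2 only peak to the nearest replicate 3 peak, and from each shared peak to the next replicate 3 peak it did not overlap. On this scale, replicate 2 only peaks form a group near 1000 bp and another from 10000 bp upwards, with few between.

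The near and the far members had similar sequence. Of the 1282 peaks within 5000 bp of a replicate 3 peak and the 804 beyond, 36.0% and 37.6% had an Alu alignment (difference -1.52, interval -5.79 to 2.70), and 0.936% and 1.87% had a 13-base MIR205HG word (difference -0.930, interval -2.18 to 0.0782). Repeated windows made up 87.4% of the near peaks and 91.4% of the far peaks (difference -3.98, interval -6.58 to -1.24). The far peaks were more often distal to genes, 35% against 30.6% (difference near minus far -4.37, interval -8.54 to -0.251). The limit of 5000 bp was chosen after the distances were seen.

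By location, replicate 2 only summits were somewhat less often near transcription start sites (TSS) than shared summits. Proximal regions, reaching from 1500 bp before any annotated TSS to 500 bp after it, held 174 replicate 2 only summits (8.34%, exact 95% interval 7.19 to 9.61) and 861 shared summits (9.92%, interval 9.30 to 10.6). The difference was -1.58 percentage points (interval -2.87 to -0.176), and the share was lower on 17 of 23 chromosomes. Proximal regions make up 7.57% of the sequenced genome. For TSS of protein-coding transcripts there were 50 replicate 2 only summits (2.4%) and 3.77% of shared summits (difference -1.37, interval -2.08 to -0.531), and 2.55% of the genome. When summits within 500 bp of each other counted as the same site, the proximal difference was -0.202 (interval -1.47 to 1.15). It was 2.84 (interval 0.573 to 4.64) when overlap was judged by replicate 1 alone, which leaves 662 shared peaks.

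Each summit was given a single class, with proximal regions taken first, then untranslated regions, exons, introns and the downstream class. Exons outside the proximal and untranslated regions held 15 replicate 2 only summits (0.719%) and 2.03% of shared summits (difference -1.31, interval -1.73 to -0.769). Untranslated regions held 15 replicate 2 only summits as well, and 1.18% of shared summits (difference -0.456, interval -0.833 to 0.0514). Introns held 54.5% and 54.1% (difference 0.404, interval -1.98 to 2.78), and 52.5% of the genome. Distal regions held 32.3% and 29.2% (difference 3.11, interval 0.913 to 5.35), and the downstream class, within 3000 bp of a gene end, 3.45% and 3.62% (difference -0.167, interval -0.981 to 0.782). The median distance to the nearest protein-coding TSS was 39083 bp for replicate 2 only and 34478 bp for shared summits.

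**Figure D5:**
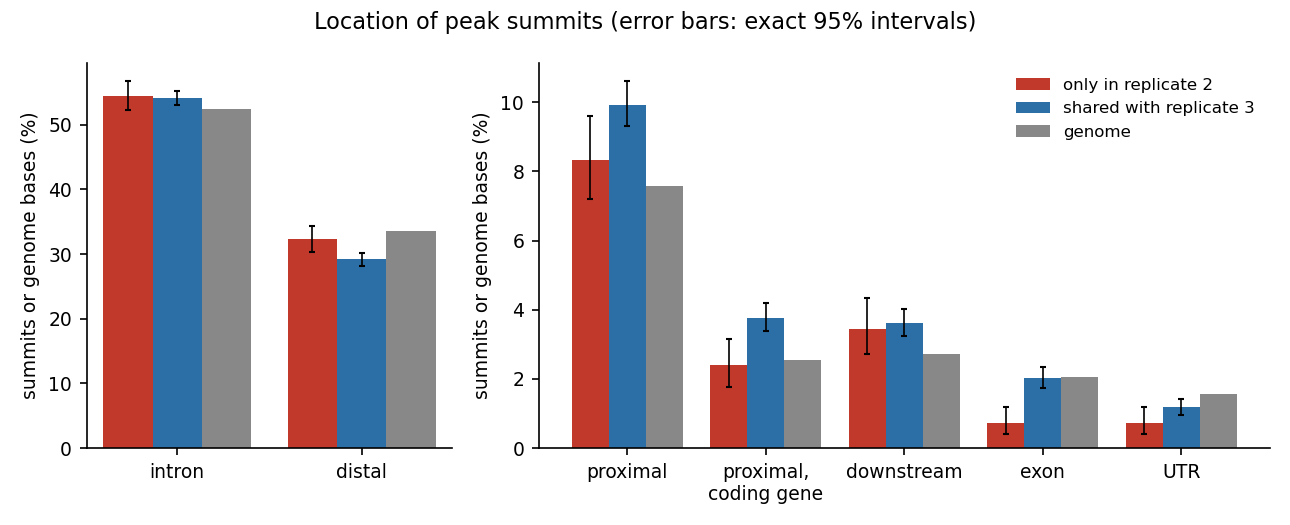
Share of summits (y axes, %) in each location class of the annotation for replicate 2 only and shared peaks, with exact 95% intervals, and of sequenced genome bases. Replicate 2 only summits are at 8.34% in proximal regions and 0.719% in exons, below the 9.92% and 2.03% of shared summits.

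Every chromosome had replicate 2 only peaks, from 0.146 to 1.45 per Mb of sequenced length with a median of 0.723. They made up 14% to 23.9% of the replicate 2 peaks of a chromosome, and for 1 chromosome the exact 95% interval left out the 19.4% of the whole list. The nearest other replicate 2 peak, shared or not, was over 5000 bp away for 51% of replicate 2 only peaks and within 1000 bp for 23.9%.

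The 10 replicate 2 only peaks of highest enrichment had fold enrichments from 9.45 to 10.9 and 23 to 29 reads at the summit, over a lacZ background of 0.850 to 1.00 reads. The highest was chr4:136664622-136664885, 1109 bp from a replicate 3 peak, in a distal region whose nearest protein-coding TSS, of PABPC4L, was 1541797 bp away. The next was chr4:25860168-25860566, in an intron of SEL1L3, with an Alu alignment of 118 bp and a fold enrichment of 10.6. Others lay in PLEKHA7, which encodes a protein of adherens junctions (chr11:17002104-17002375, 9.46), and in NR1D2, which encodes a nuclear receptor of the circadian clock (chr3:24015539-24015822, 9.46). A peak in TTC23 (chr15:99680639-99680950, 9.46) was the 1 proximal peak among the 10. All 10 were within 2554 bp of a replicate 3 peak, 4 had an Alu alignment of at least 50 bp, 6 were repeated and none had a 13-base MIR205HG word. Over all replicate 2 only peaks, 70.1% had such an alignment, 89.0% were repeated and 1.29% had a word. So few peaks cannot show whether the share with a word differs.

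The 10 most enriched peaks next to protein-coding TSS had fold enrichments from 6.24 to 9.36. The highest was chr3:151162088-151162446, 1354 bp upstream of the TSS of IGSF10, with 23 reads, an Alu alignment of 107 bp and a replicate 3 peak 22559 bp away. Peaks followed upstream of PCDHGB5, a protocadherin of cell adhesion (chr5:140775758-140776211, 7.23), KHDC1 (chr6:73973585-73973802, 7.23), PRR30 (chr2:27363013-27363246, 6.87) and DZANK1 (chr20:18414861-18415282, 6.80). A further peak lay upstream of LYPLA2, an acyl-protein thioesterase (chr1:24116298-24116519, 6.67). Another lay upstream of MEST, an imprinted gene (chr7:130124574-130124826, 6.60), 143042 bp from a replicate 3 peak. The last were upstream of ETNK2, an ethanolamine kinase (chr1:204122496-204122772, 6.35), upstream of VAT1 (chr17:41178389-41178605, 6.35), and upstream of USP34, a deubiquitinase (chr2:61431977-61432252, 6.24). The peak upstream of VAT1 lay within RND2, which had the nearest protein-coding TSS, 1265 bp away. Of these 10, 9 had an Alu alignment of at least 50 bp, all 10 were repeated and none had a 13-base MIR205HG word. At the 1.29% of all replicate 2 only peaks, such a word would seldom be met in so few peaks. Over all 50 peaks proximal to protein-coding TSS, 38 had such an alignment (76.0%, exact 95% interval 61.8 to 86.9). The 70.1% of all replicate 2 only peaks lies within this interval, so the 50 peaks were not separated from the whole set. By location, the share was 64.6% in distal regions (interval 60.9 to 68.3), 71.9% in introns, 81.9% in the downstream class and 86.7% in exons. In untranslated regions it was 60%.

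The 3 widest members were chr21:10836066-10837374 of 1309 bp, chr12:62065051-62066011 of 961 bp and chr14:22058395-22059270 of 876 bp. They had fold enrichments of 4.40, 4.16 and 3.04, and their summits lay in distal or intronic sequence. The 300 bp windows around the summits, which cover only part of each peak, were all repeated without an Alu alignment.

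Gene bodies of protein-coding genes held 1015 replicate 2 only summits (48.7%, exact 95% interval 46.5 to 50.8) and 51.5% of shared summits (difference -2.89, interval -5.27 to -0.497). With 1500 bp upstream included, 966 of 20098 protein-coding genes had a replicate 2 only summit (4.81%), and 752 of the 966 (77.8%) also had a replicate 3 summit, as had 3967 of all 20098 genes (19.7%). Gene length was not taken into account. In 824 of them there was 1 such summit, and in 22 there were 3 or more.

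The 5 protein-coding genes with most replicate 2 only summits held 3 to 7 each. AUTS2, a regulator of transcription in neural development, held 7 over 1195 kb, beside 10 shared summits, and ASTN2, which acts in neuronal migration, held 5 over 992 kb, beside 9 shared summits. SUMF2, a sulfatase-modifying factor, held 4 in 16.7 kb (240 per Mb) with no shared summit and 1 replicate 3 summit. Its peaks lay between 56133549 and 56137802 on chromosome 7, with fold enrichments of 4.80, 5.98, 5.08 and 3.12 from 12, 16, 18 and 16 reads. Each had an Alu alignment of 91 to 117 bp. INTS15, a subunit of the Integrator complex, held 3 in 18.7 kb between 6640752 and 6643183 on chromosome 7, with no shared and no replicate 3 summit. Their fold enrichments were 4.25, 6.31 and 4.70 from 12, 16 and 11 reads, and the nearest replicate 3 peak was 45097 bp away. EMILIN2, an extracellular matrix glycoprotein, held 3 in 69.0 kb, in sequence annotated to LPIN2 as well, each within 439 bp of a replicate 3 peak.

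Genes of prostate epithelium and of the interferon response were counted against the 4.81% of all protein-coding genes that had a replicate 2 only summit. Of 20 markers of basal cells, the cells that rest on the basement membrane of the prostate epithelium, CDH3 alone had one (5.00%), and of 17 markers of the secretory luminal cells none had. The peak in CDH3, which encodes P-cadherin, was chr16:68741902-68742143, intronic, with a fold enrichment of 6.33, 17 reads and a replicate 3 peak 284 bp away. Of 26 interferon genes, IRF1 and IRF2 had one each (7.69%). A shared summit was found in 4 of the 26, in 1 of the 20 basal markers and in none of the 17 luminal markers, beside 11.9% of all protein-coding genes. Counts this small do not separate the lists from either background. IRF1 and IRF2 both encode transcription factors of the interferon regulatory family. The IRF1 peak (chr5:131790413-131790871) also lay within IRF1-AS1 and another protein-coding gene. It had a fold enrichment of 5.35 and 21 reads, and lay 175265 bp from a replicate 3 peak. The IRF2 peak (chr4:185351797-185352056) had a fold enrichment of 6.74 and 16 reads, and lay 19339 bp from one. The MIR205HG gene itself (chr1:209602162-209606193) held 2 peaks of replicate 3 but none of replicate 2, of which the nearest was 785516 bp away, a replicate 2 only peak with a fold enrichment of 5.91.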

How the data were processed

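ChIRP-seq of RWPE-1 cells gave 3 MIR205HG samples and 1 lacZ sample. For each MIR205HG replicate the authors aligned reads to hg19 and called peaks with MACS2 against the lacZ library; the submitters' processing notes list Bowtie 1.0.1 and MACS2 2.1.0, while the methods name Bowtie2. The methods name a p-value limit of 1e-05, but the lists hold peaks above it (375 in replicate 2), with q-values of at most 0.05. The deposited fold enrichment is, at the summit, the ratio of ChIRP signal to the lacZ background nearby, and the p-value and q-value are deposited as −log10. The deposited score was not used. The lacZ sample entered only through these values, and reads were not analysed, so the depth is known as reads at summits, solved from fold enrichment and p-value with a fitted depth ratio (100% of peaks within 0.001 on the −log10 scale).

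Intervals were compared on hg19 with a minimum overlap of 1 bp, and summits were annotated with GENCODE release 44 on GRCh37. Windows of 300 bp around the summit were searched with blastn 2.17.0 (E-value 1e-05), windowmasker 1.0.0 and exact words. Shares have exact Clopper-Pearson 95% intervals and differences Newcombe 95% intervals, with medians compared through their order statistics; no p-value was computed. Alternatives were stricter limits, other overlap rules, leaving out replicate 1 or 3 or chromosome X, other windows and lengths, and shared peaks weighted to the enrichment or width of the members. Code was tested on simulated data. Python 3.11.15, numpy 2.4.6, pandas 2.3.3 and scipy 1.17.1 were used.

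The members, gene lists and measures were chosen with earlier results of these data known. Named peaks are the 10 members of highest fold enrichment, the 10 highest next to protein-coding TSS, the 3 widest, those of the 5 protein-coding genes with most members (ties by number per Mb), and those in genes of the basal, luminal and interferon lists. Of these lists 63 genes were matched by symbol or synonym. The printed window is that of the highest shared peak without an Alu alignment, leaving out chromosome 8 and untranslated regions. The summit windows of the members are not reported here.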

Additional observations from a re-analysis of the deposited data

Results flagged for a closer look

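Outside chromosomes 1 to 22 and X, the list of replicate 2 held 29 peaks, on chromosome Y and unplaced or alternative contigs. Of these, 12 overlapped no peak of replicate 1 or 3. They stand out only because they lie in sequence that none of the comparisons used, and they were not annotated here.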

How the results depend on the processing

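The number of replicate 2 only peaks, 2086, was 1208 when a fold enrichment of at least 5 was required in replicate 2 and 1370 when a gap of up to 1000 bp counted as overlap. It was 2087 without replicate 1 and 10103 without replicate 3, where 662 shared peaks were left; replicate 2 holds the members and could not be left out. The proximal difference of -1.58 percentage points was -1.58 without replicate 1 and 2.84 without replicate 3; its interval included 0 with a fold enrichment of at least 5 (-1.77), with summits within 500 bp (-0.202) and for members over 5000 bp from replicate 3 (-1.84). The Alu difference of 10.4 was 10.4 without replicate 1 and 12.2 without replicate 3; it was -0.501 over whole peaks and -0.00783 with alignments of at least 150 bp, which 0.0125% of genome windows had. The GC difference of 0.333 was 0.333 without replicate 1 and 5.33 without replicate 3; it was 0.667 with summits within 500 bp, 1.05 over whole peaks and -1.10 with windows of 1000 bp. The differences in repeated windows (10.5 to 27.1) and in MIR205HG words (-23.2 to -2.08) kept their direction, with intervals that left out 0, under each alternative run, all added after the values were seen. The causes were not tested. No paired analysis was possible because the replicates form a single group. At a median of 17 reads per summit, a site missed in replicate 3 cannot be told from one that is absent there.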
